A study of Rattus norvegicus with 4 samples.

Results

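Nr4a1, Nr4a2, Nr4a3 and Egr1 are 4 of the 4736 genes that the annotation of the Affymetrix RG-U34A rat array names by a single symbol, and their 11 probe sets are all those among 8740 (59 control probe sets set aside) that carry 1 of these 4 symbols alone. Nr4a1 had 2 probe sets, Nr4a2 had 2, Nr4a3 had 3 and Egr1 had 4. In serum-stimulated Rat1-Omomer cells, Nr4a1 and, on 1 probe set of 3, Nr4a3 stood well above their values in every other condition. Nr4a2 and Egr1 were also highest there on their brightest probe sets, but by much smaller ratios. These genes were picked with their values on these 4 arrays already known, so what follows describes their levels and ratios and tests nothing.

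Nr4a1, Nr4a2 and Nr4a3 encode a family of orphan nuclear receptors, transcription factors whose activity is set largely by how much of them the cell makes rather than by a ligand. Egr1 encodes a zinc finger transcription factor that binds GC-rich promoter elements. All of them are immediate early genes: in resting fibroblasts serum switches their transcription on within minutes, through the serum response factor and through CREB family factors, without new protein synthesis, and the transcripts are short-lived.

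The cells were Rat1, rat fibroblasts grown as an immortalized line, with 1 array in each of 4 conditions. Rat1-Omomer cells were stably infected with a retrovirus for Omomer, which is Omomyc (a dominant interfering form of the bHLHZip part of Myc) joined to the tamoxifen-responsive oestrogen receptor part ERTM, and Rat1-control cells carried a control virus. RNA was taken from stimulated Rat1-Omomer and stimulated Rat1-control cells, 90 min after a change to 10% serum, and from both lines in the starved state, at 0 min, the end of 48 h in 0.1% serum. Both lines received tamoxifen (4-OHT), and the sources differ on whether it was present for all of the starvation or was added shortly before serum, so the length of Omomer activation is not settled. Each line is an infected population, the Omomer transgene itself was not measured here, and a difference between the lines cannot be told apart from any other difference between the 2 infected populations. One descriptive field of the sample records exchanges the 2 viruses for the Rat1-Omomer 0 min and Rat1-control 90 min arrays, against the titles, source names and descriptions, which were followed. No condition was replicated, so no ratio below has an error between samples.

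Each value is an average difference, the mean excess of matched over mismatched probes in a probe set, and can fall below 0. On the 4 arrays 24.8% to 27.7% of values were negative, and the size of those negative values gave a noise SD of 524. Values at or below 1048, 2 noise SD, were set to that floor before a ratio was taken. A ratio against a floored value is a bound and is written as "at least" or "or more", and a probe set under the floor on both arrays has no ratio. A probe set was counted as higher or lower at a ratio of 3 or more, the threshold in the study's methods. Of the 11 probe sets of the 4 genes 9 cleared the floor on at least 1 array, and the other 2 (L08595_at for Nr4a2 and rc_AI145834_at for Nr4a3) stayed below it on every array. Of 17 measured fibroblast marker genes 16 were above the floor on each array, while none of 5 epithelial and none of 3 endothelial markers was. Summed fibroblast levels were 736951 in stimulated Rat1-Omomer and 679707 in stimulated Rat1-control cells, and 569442 in starved Rat1-Omomer and 578212 in starved Rat1-control cells. Between the stimulated lines the median ran the other way, at 33756 in Rat1-Omomer and 46890 in Rat1-control cells. In starved cells the median was 35878 in Rat1-Omomer and 37377 in Rat1-control cells. Of the other markers above the floor there were 1 of 4 for leukocytes (2 in starved Rat1-control cells), 1 of 5 for neurons, and 1 of 4 for skeletal muscle in stimulated Rat1-Omomer cells alone. Their part in the results was not tested. Fewer cells expressing a gene and less of its RNA per cell cannot be told apart in such bulk RNA.

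To show which control elements lie beside these genes, the 250 bases before the annotated start of transcription were taken from the RefSeq table (assembly GRCr8), which held 3 of the 4 genes. Capitals mark matches, read on either strand, to the CRE core (TGACG) of the element bound by CREB family factors, and to a short Egr site (GCGGGGGCG), a GC-rich form of the Egr1 binding element. The Nr4a1 stretch lies at chr7:134259888-134260137 on the plus strand, and that of Nr4a2 at chr3:62104888-62105137 on the minus strand. Both are printed in the direction of transcription.
Nr4a1: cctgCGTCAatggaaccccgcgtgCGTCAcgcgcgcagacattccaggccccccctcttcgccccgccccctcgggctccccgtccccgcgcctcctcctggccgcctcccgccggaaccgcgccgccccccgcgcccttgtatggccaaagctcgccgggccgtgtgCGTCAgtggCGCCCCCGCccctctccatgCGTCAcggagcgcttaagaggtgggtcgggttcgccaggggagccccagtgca
Nr4a2: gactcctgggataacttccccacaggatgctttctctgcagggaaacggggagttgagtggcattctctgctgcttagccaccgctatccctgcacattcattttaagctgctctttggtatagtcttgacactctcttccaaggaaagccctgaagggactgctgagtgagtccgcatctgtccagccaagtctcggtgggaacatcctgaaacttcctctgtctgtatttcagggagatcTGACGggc
The Nr4a1 promoter held 4 CRE cores, at 246, 226, 82 and 53 bases before the start (counted at the first base of each), and a short Egr site at 73 bases before it. Nr4a2 had a single CRE core, 8 bases before its annotated start. Other possible starts of these genes were not examined, and the annotated ones were not checked. The Egr1 promoter held 2 CRE cores and 2 CArG boxes (CC, then 6 A or T, then GG), the element of the serum response factor, at 105 and 83 bases before the start. Nr4a1 and Nr4a2 had no exact match to the CArG box in this window, and looser forms of it were not searched for. Of 33469 promoters of the same length, 18.2% held at least 1 CRE core and 0.173% held 4 or more, 501 promoters held a CArG box, and 2.45% held a short Egr site. None of the 3 promoters matched the full CRE (TGACGTCA), the NBRE to which Nr4a receptors bind as monomers (AAAGGTCA), the Egr site GCGTGGGCG or the E-box CACGTG, the element of Myc and Max, which were found in 1.59%, 1.24%, 0.478% and 5.59% of all promoters. A match says only that these letters are present.

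Nr4a1 (Nur77) is the receptor best known as a rapid growth factor response gene in fibroblasts. On probe set U17254_g_at it measured 85746 in stimulated Rat1-Omomer and 15137 in stimulated Rat1-control cells, and 6195 in starved Rat1-Omomer and 16461 in starved Rat1-control cells. On U17254_at, built from the same transcript and so no independent measurement, it measured 60829 in stimulated Rat1-Omomer and 8879 in stimulated Rat1-control cells, and 4492 in starved Rat1-Omomer and 10558 in starved Rat1-control cells. Both probe sets placed the 4 conditions in the same order, with stimulated Rat1-Omomer cells far above the rest and starved Rat1-Omomer cells lowest.

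**Figure D1:**
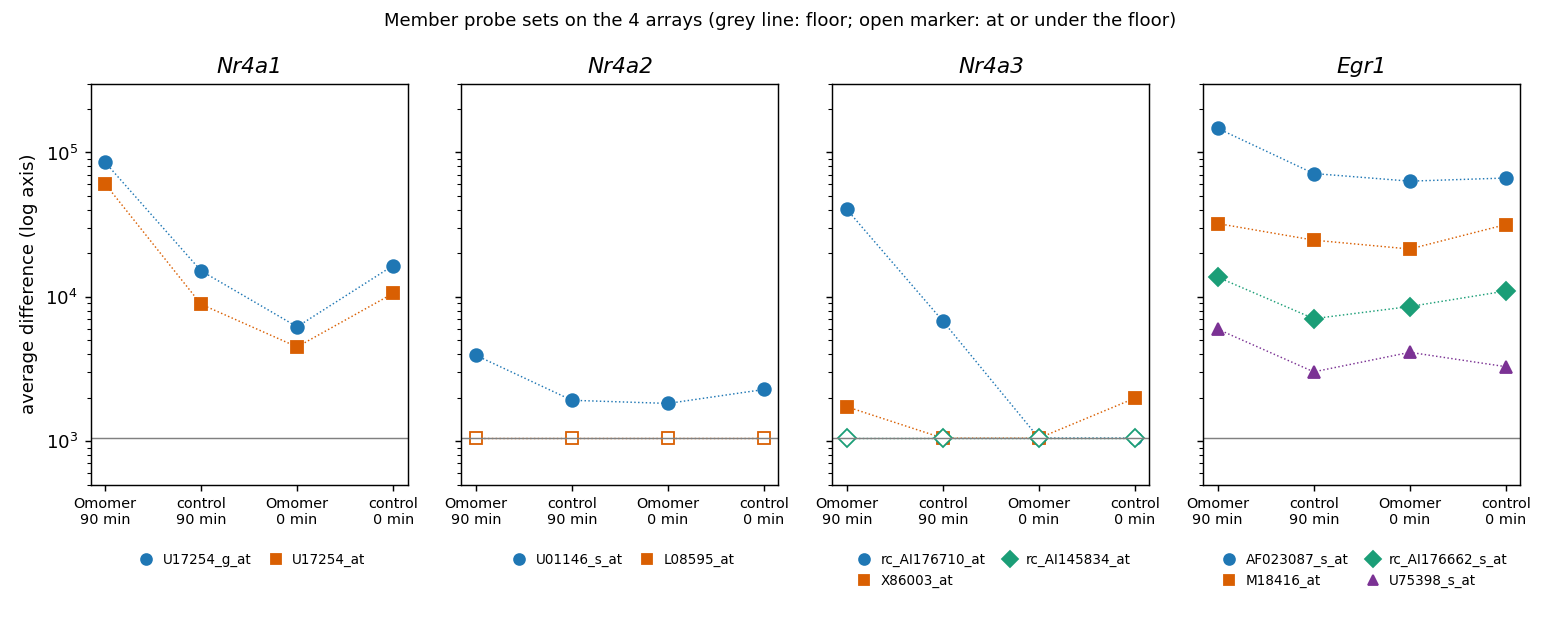
Average difference (log axis) of each probe set of Nr4a1, Nr4a2, Nr4a3 and Egr1 on the 4 arrays, 1 array per condition, with dotted lines joining the values of 1 probe set and open markers for values at or under the floor of 1048. Nr4a1 by U17254_g_at stood at 85746 in stimulated Rat1-Omomer cells and at 16461 or less on the other 3 arrays.

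The serum response of Nr4a1, its value at 90 min over that at 0 min of the same cells, was 13.8 and 13.5 in Rat1-Omomer cells. In Rat1-control cells the 90 min value was 1.09-fold and 1.19-fold lower than at 0 min. At 90 min Rat1-Omomer cells were therefore 5.66-fold and 6.85-fold above Rat1-control cells. At 0 min the difference ran the other way, with Nr4a1 2.66-fold and 2.35-fold lower in Rat1-Omomer than in Rat1-control cells. Against starved Rat1-control cells, the baseline used in the study's methods, stimulated Rat1-Omomer cells were 5.21-fold and 5.76-fold higher. The serum response in Rat1-Omomer cells thus exceeded that in Rat1-control cells by 15.1-fold and 16.1-fold, an excess made up of the higher value at 90 min and the lower value at 0 min.

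Nr4a3 (Nor-1) is, like Nr4a1, a growth factor response gene of fibroblasts and smooth muscle cells. Probe set rc_AI176710_at measured 40343 in stimulated Rat1-Omomer and 6790 in stimulated Rat1-control cells, and 559 in starved Rat1-Omomer and 289 in starved Rat1-control cells, with both starved values under the floor. Nr4a3 was thus detected by this probe set only after serum, and in both lines. In Rat1-Omomer cells its serum response was 38.5-fold or more, and 1 of 4209 probe sets with a ratio had a larger one. In Rat1-control cells it was 6.48-fold or more. The ratio between the lines at 90 min was 5.94, close to that of Nr4a1, and at 0 min there was no ratio because neither value cleared the floor. Over starved Rat1-control cells the ratio of stimulated Rat1-Omomer cells was again 38.5 or more, and none of the 4220 probe sets with a ratio had a larger one.

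The other probe sets for Nr4a3 did not follow rc_AI176710_at. X86003_at measured 1729 in stimulated Rat1-Omomer and 991 in stimulated Rat1-control cells, and 359 in starved Rat1-Omomer and 1984 in starved Rat1-control cells. It was above the floor in stimulated Rat1-Omomer and in starved Rat1-control cells only, never at more than 4 noise SD (2096). On it the 90 min value was 1.65-fold or more above that at 0 min in Rat1-Omomer cells, and 1.89-fold or more below it in Rat1-control cells. Starved Rat1-Omomer cells were likewise 1.89-fold or more below starved Rat1-control cells. rc_AI145834_at gave 230 in stimulated Rat1-Omomer and 316 in stimulated Rat1-control cells, and 280 in starved Rat1-Omomer and 194 in starved Rat1-control cells, all under the floor. The high ratios of Nr4a3 therefore rest on 1 probe set of 3.

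Nr4a2 (Nurr1), the receptor needed for midbrain dopamine neurons, gave values within 4 times the floor on every array. U01146_s_at measured 3930 in stimulated Rat1-Omomer and 1917 in stimulated Rat1-control cells, and 1823 in starved Rat1-Omomer and 2278 in starved Rat1-control cells. The 3 lower values differed from each other by less than 1 noise SD. The serum response was 2.16-fold higher in Rat1-Omomer cells and 1.19-fold lower in Rat1-control cells. Between the lines, stimulated Rat1-Omomer cells were 2.05-fold above and starved ones 1.25-fold below their Rat1-control counterparts. Over starved Rat1-control cells, stimulated Rat1-Omomer cells were 1.73-fold higher. None of the ratios of Nr4a2 reached 3. L08595_at, under the floor throughout, gave 426 in stimulated Rat1-Omomer and 177 in stimulated Rat1-control cells, and 96 in starved Rat1-Omomer and 356 in starved Rat1-control cells.

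Egr1 was above the floor on all 4 of its probe sets in every condition, starved cells included. AF023087_s_at measured 146952 in stimulated Rat1-Omomer and 71472 in stimulated Rat1-control cells, and 63281 in starved Rat1-Omomer and 66526 in starved Rat1-control cells. M18416_at measured 32179 in stimulated Rat1-Omomer and 24685 in stimulated Rat1-control cells, and 21426 in starved Rat1-Omomer and 31669 in starved Rat1-control cells. Starved Rat1-Omomer cells were the lowest of the 4 conditions on both of these probe sets. On the other pair, rc_AI176662_s_at measured 13682 in stimulated Rat1-Omomer and 7052 in stimulated Rat1-control cells, and 8560 in starved Rat1-Omomer and 10964 in starved Rat1-control cells. U75398_s_at measured 5963 in stimulated Rat1-Omomer and 3018 in stimulated Rat1-control cells, and 4122 in starved Rat1-Omomer and 3276 in starved Rat1-control cells. All 4 probe sets were highest in Rat1-Omomer cells at 90 min, but on M18416_at starved Rat1-control cells came within 1.02-fold of that value and stood above it after quantile normalization (ratio 0.815). Over starved Rat1-control cells the ratios of stimulated Rat1-Omomer cells were 2.21, 1.02, 1.25 and 1.82 on AF023087_s_at, M18416_at, rc_AI176662_s_at and U75398_s_at.

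In Rat1-Omomer cells the serum response of Egr1 was 2.32 on AF023087_s_at, and 1.50, 1.60 and 1.45 on M18416_at, rc_AI176662_s_at and U75398_s_at. In Rat1-control cells the 90 min value was 1.07-fold above that at 0 min on AF023087_s_at, and 1.28-fold, 1.55-fold and 1.09-fold below it on the other 3. No probe set of Egr1 thus reached a ratio of 3 in either line. At 90 min Egr1 was 2.06-fold, 1.30-fold, 1.94-fold and 1.98-fold higher in Rat1-Omomer than in Rat1-control cells, in the same order of probe sets. At 0 min the log2 difference of Rat1-Omomer from Rat1-control cells was -0.07, -0.56 and -0.36 on the first 3 and 0.33 on U75398_s_at, and the first of these turned to a ratio of 1.02 with quantile normalization.

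The Rat1-Omomer 90 min array stood apart at high signal, and this touches Egr1 most, chiefly on its brightest probe set. The 178 probe sets with a mean of at least 40000 over the 4 arrays, a level set after the values were seen, had a median serum response of 1.71 (90th percentile 2.19) in Rat1-Omomer cells and a median ratio of 1.38 (90th percentile 1.64) between the lines at 90 min. Egr1 on AF023087_s_at, which is among them, gave 2.32 and 2.06. After quantile normalization, which gives all arrays the same distribution, these ratios were 1.17 and 1.32, and the small Rat1-control serum response on that probe set turned to 0.911. Between the lines at 90 min, M18416_at went from 1.30 to 1.15 with this normalization. The dimmer Egr1 probe sets hardly moved, rc_AI176662_s_at from 1.94 to 1.88 and U75398_s_at from 1.98 to 1.99. Control probe sets for Gapdh and beta-actin were also highest on the Rat1-Omomer 90 min array. Beta-actin (3' probes) stood at 87213 in stimulated Rat1-Omomer and 52950 in stimulated Rat1-control cells, and 45032 in starved Rat1-Omomer and 46320 in starved Rat1-control cells. The 3' probes for hexokinase did not follow, at 630 (under the floor) in stimulated Rat1-Omomer and 1502 in stimulated Rat1-control cells. Its middle probes were highest there, at 2006 in stimulated Rat1-Omomer and 1244 in stimulated Rat1-control cells. In starved cells the middle probes gave 1395 in Rat1-Omomer and 552 in Rat1-control cells. All these hexokinase signals were low. The part of this shift in the Egr1 values was not tested. Nr4a1 and Nr4a3 kept ratios between the lines of 4.09 and 5.46 (both Nr4a1 probe sets) and 5.23 (rc_AI176710_at) after the same normalization.

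**Figure D2:**
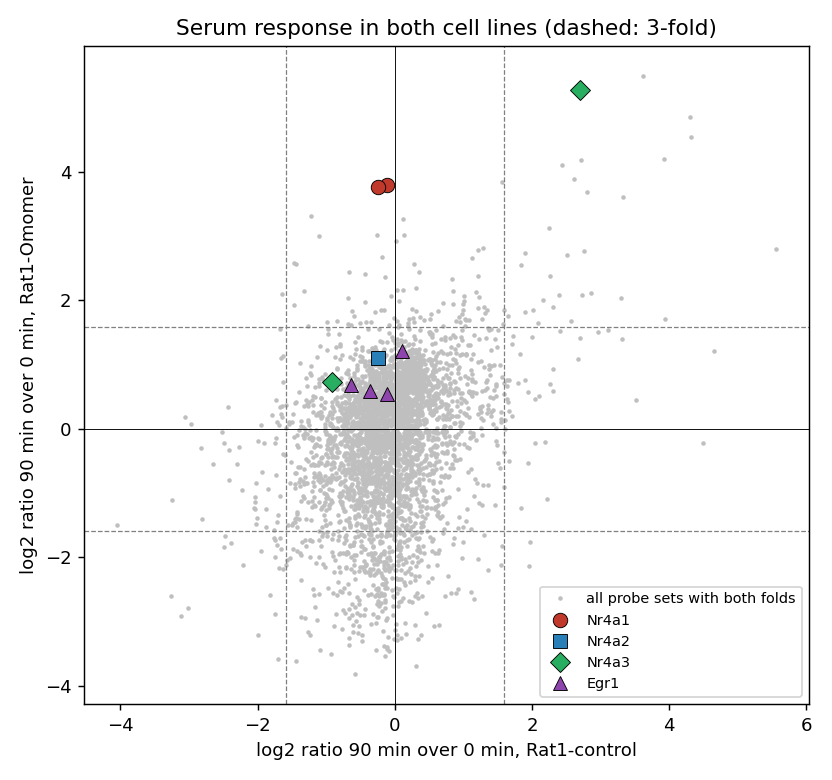
Log2 serum response (90 min over 0 min) of Rat1-Omomer cells (vertical) against that of Rat1-control cells (horizontal), each point a probe set with a ratio in both lines and values below the floor set to it, with dashed lines at 3-fold. Both Nr4a1 points lie at 3.79 and 3.76 on the vertical axis and at -0.12 and -0.25 on the horizontal one, while Nr4a3 by rc_AI176710_at lies at 5.27 and 2.70.

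Counted over probe sets, 3 of the 9 with a ratio (both of Nr4a1 and rc_AI176710_at of Nr4a3) were at least 3-fold higher after serum in Rat1-Omomer cells, where 2.9% of all 4209 probe sets were. In Rat1-control cells 1 of 9 was (Nr4a3), against 1.93% of 3985. Between the lines at 90 min the same 3 of 9 reached 3-fold, higher in Rat1-Omomer cells, against 2.22% of 4048. At 0 min 0 of 8 differed by 3-fold, against 0.251% higher and 0.503% lower of 3977. For stimulated Rat1-Omomer over starved Rat1-control cells the count was 3 of 9, against 2.8% of 4220. No member was at least 3-fold lower in any comparison. Of all probe sets, 9.65% were that much lower after serum in Rat1-Omomer and 1.81% in Rat1-control cells, 8.57% between the lines at 90 min, and 9.95% for stimulated Rat1-Omomer over starved Rat1-control cells. The genes were selected on these contrasts, so the counts say nothing beyond the values themselves. The comparisons share arrays and are not independent of each other.

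Probe sets with a serum response in 1 line were set against the other line. Of the 122 probe sets past 3-fold upward in Rat1-Omomer cells, 115 had a ratio in Rat1-control cells. Of these, 30 were also at least 3-fold higher in Rat1-control cells, 53 were higher by less than 3-fold, and 32 were at or below 1. Of the 77 past 3-fold upward in Rat1-control cells, 72 had a ratio in Rat1-Omomer cells, with 30 also past 3-fold there, 30 higher by less and 12 at or below 1. Both sets were picked for a high unreplicated ratio in 1 line, so nothing is read from lower ratios in the other. Nr4a3 (rc_AI176710_at) was past 3-fold in both lines, and both Nr4a1 probe sets were among the 32. Among 3766 probe sets with a ratio in each line at each time, those of Nr4a1 were the fifth and the sixth by excess of the Rat1-Omomer over the Rat1-control response.

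By likeness of the 4 log2 values, each centred on its own mean, few genes resembled Nr4a1 or Nr4a3, whereas Nr4a2 and Egr1 had many neighbours. Of 2389 genes compared, none lay within a distance of 0.5 log2 units of Nr4a1 or of Nr4a3, while 406 lay that close to Nr4a2 and 337 to Egr1. The nearest to Nr4a1 was Arc, an immediate early gene best known at neuronal synapses, at a distance of 0.61. It measured 51956 in stimulated Rat1-Omomer and 13538 in stimulated Rat1-control cells, and 6434 in starved Rat1-Omomer and 16228 in starved Rat1-control cells. Dusp1, a serum-induced phosphatase of MAP kinases, followed at 0.87 with 43122 in stimulated Rat1-Omomer and 6787 in stimulated Rat1-control cells, and 4340 in starved Rat1-Omomer and 15893 in starved Rat1-control cells. Arc and Dusp1 shared with Nr4a1 both the high value in stimulated Rat1-Omomer cells and the low value in starved Rat1-Omomer cells. Bdnf, a secreted neurotrophin, came next at 1.17 and lacked the low value, with 10467 in stimulated Rat1-Omomer and 2316 in stimulated Rat1-control cells, and 1923 in starved Rat1-Omomer and 1817 in starved Rat1-control cells.

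Nearest to Nr4a3 was Ptgs2, the inducible cyclooxygenase, at 1.32, with 61996 in stimulated Rat1-Omomer and 14283 in stimulated Rat1-control cells, and 4324 in starved Rat1-Omomer and 4835 in starved Rat1-control cells. Its other probe set, S67722_s_at, gave 67202 in stimulated Rat1-Omomer and 38750 in stimulated Rat1-control cells, a ratio of 1.73 where the nearest probe set had 4.34. C9h6orf141 (1.40) and Cnn1, the actin-binding protein calponin (1.62), came next. Cnn1 had 19255 in stimulated Rat1-Omomer and 15872 in stimulated Rat1-control cells and was under the floor at 0 min, so it shared the serum response of Nr4a3 in both lines and not the difference between them. The genes nearest to Nr4a2 were Prm2 (0.084), Calcrl (0.10) and Tbxa2r (0.11), and those nearest to Egr1 were Slc16a7 (0.033), Atp6v1a (0.066) and Cyp2b15 (0.069). Of Atp6v1a, another probe set (rc_AA893217_at) gave a ratio of 0.199 between the lines at 90 min. On the probe sets compared these 6 had no value above 4122, where the floor limits how far a profile can spread. Likeness was taken over 4 arrays and is a description.

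Relatives and partners of Egr1 gave no ratio of 3, apart from Egr2. Of 9 listed genes 6 were on the array, with 5 probe sets that had a ratio. After serum 1 of the 5 was at least 3-fold higher in Rat1-Omomer and none in Rat1-control cells, against 2.9% and 1.93% of all probe sets. So few probe sets say little beside these shares. Egr2, a close paralog of Egr1, measured 4656 in stimulated Rat1-Omomer and 1589 in stimulated Rat1-control cells, and 1472 in starved Rat1-Omomer and 3145 in starved Rat1-control cells. Its order of conditions was that of Nr4a1, with ratios of 3.16 for the Rat1-Omomer serum response and 2.93 between the lines at 90 min, a Rat1-control value 1.98-fold lower after serum, and a 2.14-fold lower value in Rat1-Omomer cells at 0 min. Egr4 measured 4175 in stimulated Rat1-Omomer and 3088 in stimulated Rat1-control cells, and 2799 in starved Rat1-Omomer and 3186 in starved Rat1-control cells. Nab1, which restrains Egr proteins, and Sp1, which shares GC-rich sites with them, had no ratio of 3 between any of the conditions compared.

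Other nuclear receptors did not share the values of Nr4a1 and Nr4a3. Of 42 listed genes 32 were on the array with 56 probe sets, of which only 17 to 20 had a ratio in any 1 comparison. None of the 19 with a Rat1-Omomer serum response was at least 3-fold higher, against 2.9% of all probe sets. Of the 19, 1 was at least 3-fold lower, against 9.65% of all. Counts this small say little beside these shares. The median of the 19 was -0.21 on the log2 scale against 0.09 for all probe sets. Between the lines at 90 min the median was 0.63 against 0.18. Past 3-fold were 0 of 17, against 2.22% higher and 8.57% lower of all. The highest were Nr2f1 (COUP-TFI) at 2.51 (2654 in Rat1-Omomer and 1059 in Rat1-control cells) and Nr1d2 (Rev-erb beta) at 2.35 or more. The lowest were Vdr, the vitamin D receptor, 2.54-fold or more below its Rat1-control value, and Ppard, a fatty acid receptor, 1.39-fold below it. In the Rat1-control response 1 of 19 was at least 3-fold higher (Esr1) and 1 lower (Nr1h2, the oxysterol receptor LXR beta, 3.34-fold). Of all probe sets 1.93% were higher and 1.81% lower by that much. In starved Rat1-Omomer cells 2 of 20 were past 3-fold upward, Esr1 and Nr5a1, against 0.251% of all. Esr1, the oestrogen receptor alpha, measured 3334 in stimulated Rat1-Omomer and 3325 in stimulated Rat1-control cells, and 4711 in starved Rat1-Omomer and -927 in starved Rat1-control cells, and Nr5a1, the steroidogenic factor SF-1, was above the floor in starved Rat1-Omomer cells alone, at 5001. The highest Rat1-Omomer serum responses of the list were 1.61 for Rxrg and 1.56 for Nr2f6 (COUP-TF gamma). Rxra and Rxrb, the partners with which Nr4a1 and Nr4a2 can bind DNA, were under the floor on all arrays, and Rxrg measured 2896 in stimulated Rat1-Omomer and 1722 in stimulated Rat1-control cells, and 1804 in starved Rat1-Omomer and 1455 in starved Rat1-control cells.

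**Figure D3:**
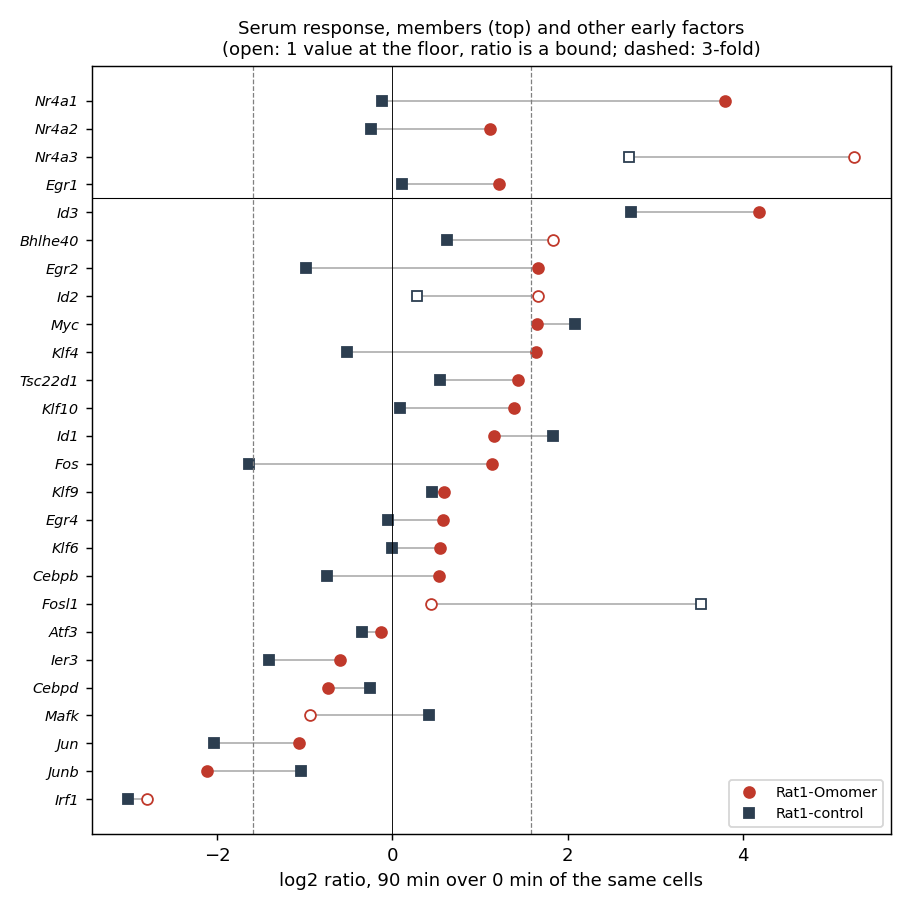
Log2 serum response (90 min over 0 min) in Rat1-Omomer (circles) and Rat1-control cells (squares) for the brightest probe set of each of the 4 genes (top) and of Egr2, Egr4 and the other immediate early transcription factors with a ratio in both lines, with open markers for bounds. In Rat1-Omomer cells Nr4a3 was highest at 5.27 or more, followed by Id3 and then Nr4a1 (3.79).

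The other immediate early transcription factors had members past 3-fold in both directions. Of 32 listed genes 24 were on the array, and of their 37 probe sets with a ratio 7 were at least 3-fold higher and 3 lower after serum in Rat1-Omomer cells, against 2.9% and 9.65% of all probe sets. In Rat1-control cells 5 were higher and 8 lower, against 1.93% and 1.81% of all. The median log2 response was 0.53 in Rat1-Omomer and -0.35 in Rat1-control cells, against 0.09 and -0.07 for all probe sets. Id3, an inhibitor of bHLH factors, had an 18.1-fold higher value after serum in Rat1-Omomer and a 6.57-fold higher one in Rat1-control cells. Bhlhe40, a bHLH repressor, had the next highest Rat1-Omomer response of the list, 3.55-fold or more. Unlike Nr4a1, Id3 ended at similar values in both lines, 59972 in Rat1-Omomer and 54097 in Rat1-control cells at 90 min. Klf4, a zinc finger factor linked to growth arrest, was the highest of the list between the lines at 90 min by brightest probe sets, at a ratio of 4.04, followed by Klf10, an early gene of TGF-beta, at 2.78. Klf4 measured 9069 in stimulated Rat1-Omomer and 2247 in stimulated Rat1-control cells, and 2911 in starved Rat1-Omomer and 3206 in starved Rat1-control cells.

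In the other direction, Fosl1 (the AP-1 subunit Fra-1) measured 1423 in stimulated Rat1-Omomer and 11973 in stimulated Rat1-control cells, 8.41-fold lower, and was under the floor in both lines at 0 min. Junb, another AP-1 subunit, was 5.19-fold lower in stimulated Rat1-Omomer cells, on a probe set from a group of 5 EST series in which 27.2% of those with a ratio were 3-fold or more lower in this comparison, against 3.30% outside it. No probe set of Nr4a1, Nr4a2, Nr4a3 or Egr1 belongs to that group, which was recognised after the values were seen. Omomer carries parts of Myc and of an oestrogen receptor, and whether the Myc and Esr1 probe sets also read its RNA was not tested. Myc measured 7233 in stimulated Rat1-Omomer and 4980 in stimulated Rat1-control cells, and 2307 in starved Rat1-Omomer and 1172 in starved Rat1-control cells. Its serum response was 3.14 in Rat1-Omomer and 4.25 in Rat1-control cells.

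Genes of the signalling routes that act on these promoters showed no ratio of 3 within a line or between the lines at 1 time. Of 34 listed genes 16 were on the array, and none of their 26 probe sets with a Rat1-Omomer serum response, 21 with a Rat1-control one or 24 with a ratio between the lines at 90 min was 3-fold higher or lower. Of all probe sets 2.9% were higher and 9.65% lower, 1.93% higher and 1.81% lower, and 2.22% higher and 8.57% lower in turn. For stimulated Rat1-Omomer over starved Rat1-control cells 1 of 27 was at least 3-fold lower, against 9.95% of all. Crem, a CREB family gene with a cAMP-inducible repressor product, was highest at 90 min, with a ratio between the lines of 2.70 or more. It measured 2825 in stimulated Rat1-Omomer and 591 in stimulated Rat1-control cells, and 646 in starved Rat1-Omomer and 435 in starved Rat1-control cells. Prkaca, the catalytic subunit of protein kinase A, was 2.01-fold higher (9702 in Rat1-Omomer and 4820 in Rat1-control cells). The lowest were Camk2d, a calmodulin kinase on a probe set of the same EST series, at 1.92-fold lower, and Nras, at 1.73-fold lower or more. The next highest Rat1-Omomer response after Crem was 1.53 for the kinase Map2k5.

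Genes with known regulation by Egr1 differed from each other in direction between the lines. Of 30 listed genes 23 were on the array, and of 31 probe sets with a ratio between the lines at 90 min 1 was past 3-fold upward in Rat1-Omomer cells and 3 were past it downward, against 2.22% and 8.57% of all probe sets, with a median log2 ratio of -0.40 against 0.18 for all. After serum 2 of 25 were at least 3-fold higher in Rat1-Omomer and 5 of 30 in Rat1-control cells, against 2.9% and 1.93% of all, and none was lower. Ptgs2 had the highest Rat1-Omomer serum response, 6.87 on its brightest probe set, and its ratio between the lines at 90 min was 1.73. Cd44, the hyaluronan receptor, measured 8162 in stimulated Rat1-Omomer and 20915 in stimulated Rat1-control cells, and 2820 in starved Rat1-Omomer and 2424 in starved Rat1-control cells. Vegfa, the endothelial growth factor, measured 1082 in stimulated Rat1-Omomer and 10454 in stimulated Rat1-control cells, 9.66-fold lower, on a probe set of the EST series just described. Icam1, a cell adhesion receptor, was 2.77-fold higher, at 6521 in stimulated Rat1-Omomer and 2351 in stimulated Rat1-control cells.

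Genes with known regulation by Nr4a receptors were mostly undetected. Of 29 listed genes 24 were on the array with 36 probe sets, and only 6 of these had a ratio for the Rat1-Omomer serum response and 3 for that of Rat1-control cells. None passed 3-fold in any comparison. At most 9.95% of all probe sets did in either direction, so this says little for so few probe sets. Slc6a3, the dopamine transporter, was the highest at 90 min with a ratio of 2.18 or more, at 2285 in stimulated Rat1-Omomer and 603 in stimulated Rat1-control cells. Pygm, the muscle glycogen phosphorylase, followed at 1.60 or more. Spp1, osteopontin, which is also on the Egr1 list, was 2.03-fold lower (36147 in Rat1-Omomer and 73452 in Rat1-control cells).

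**Figure D4:**
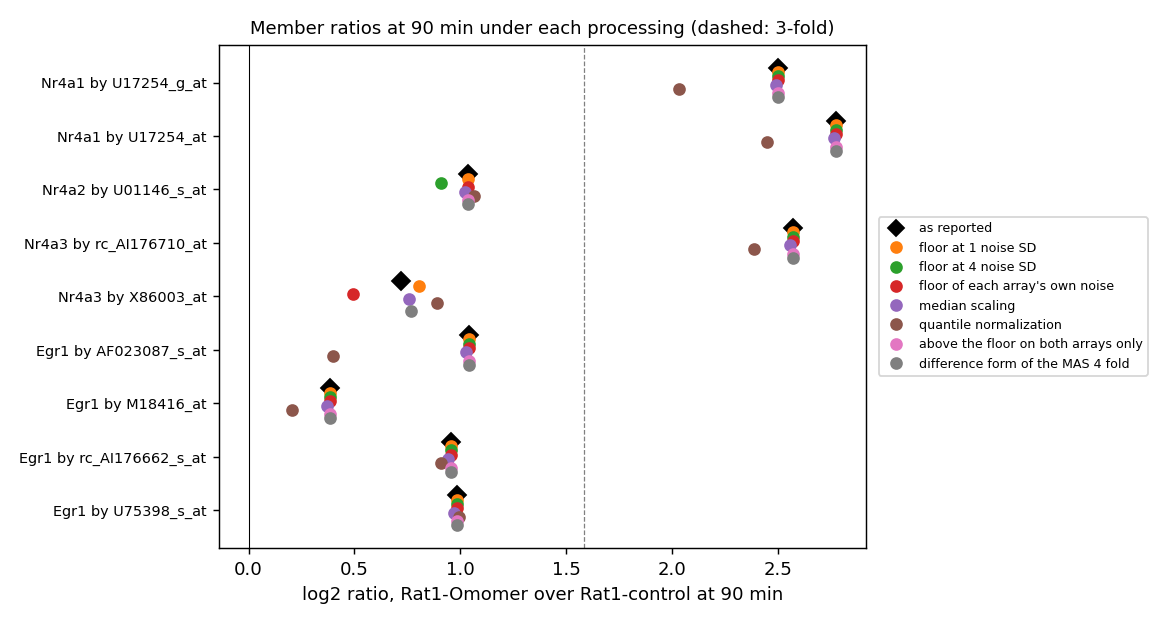
Log2 ratio of Rat1-Omomer over Rat1-control cells at 90 min for each probe set of the 4 genes with a ratio, as reported (diamonds) and under each alternative that keeps single probe sets (circles), with a dashed line at 3-fold. Nr4a1 and Nr4a3 by rc_AI176710_at stayed to the right of 3-fold throughout, and Egr1 by AF023087_s_at moved most, to a ratio of 1.32 with quantile normalization.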

How the data were processed

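RNA of 4 conditions was hybridized to 4 Affymetrix RG-U34A arrays, 1 per condition. The intensity values are average differences that the authors computed with Microarray Analysis Suite version 4 with its default settings. They were deposited unlogged, negative values included, and their trimmed means (2% per tail) were 2500 on each array. Of 8740 probe sets other than controls, 7006 carried 1 gene symbol in the platform annotation, 308 several and 1426 none. Groups were taken from the sample titles. The floor was 2 times 1.4826 times the median absolute negative value over the 4 arrays. Ratios were computed with Python 3.11.15, numpy 2.4.6 and pandas 2.3.3, and the steps were tested on simulated data with known changes. With 1 array per condition no test was run. Precision is limited by the number of arrays.

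The 4 genes, the 6 gene lists and the motifs were chosen with earlier results of these data known. All 11 probe sets were named. The 3 genes of the nearest profile were named for each. Of a list, the 2 highest and 2 lowest ratios between the lines at 90 min and the 2 highest serum responses per line, by the brightest probe set, could be named, and not all were. Myc was always named. Nr1h2 and Nr5a1 were named after their values were seen. Alternatives were floors of 1 and 4 noise SD, floors from each array's own noise, median scaling, quantile normalization, a requirement of both values above the floor, the difference form of the fold, and the median over a gene's probe sets.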

Additional observations from a re-analysis of the deposited data

Results flagged for a closer look

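On 7 of the 9 probe sets of these genes with a ratio in both lines, the serum response ran in opposite directions, higher at 90 min in Rat1-Omomer and lower at 90 min in Rat1-control cells. The medians over all probe sets ran in opposite directions too, at log2 0.09 in Rat1-Omomer and -0.07 in Rat1-control cells. The share of all probe sets with opposite directions was not counted, so 7 of 9 is not read as a trait of these genes. The smaller falls lie near a ratio of 1. With 1 array per condition the difference was not tested. For Nr4a1 the Rat1-Omomer response exceeded the Rat1-control response by 15.1-fold on U17254_g_at and by 16.1-fold on U17254_at. For Nr4a2 the excess was 2.56-fold on U01146_s_at. For Nr4a3 it was 3.12-fold on X86003_at, where 1 value in each response lay at the floor. For Egr1 it was 1.93-fold on M18416_at, 2.49-fold on rc_AI176662_s_at and 1.57-fold on U75398_s_at. The fall in Rat1-control cells was 1.55-fold or less on each of these except X86003_at. The other 2 probe sets, AF023087_s_at of Egr1 and rc_AI176710_at of Nr4a3, were higher at 90 min in both lines.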

How the results depend on the processing

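No paired analysis was possible because each condition had 1 array, and for the same reason no replicate could be left out. The counts of member probe sets past 3-fold changed under 2 alternatives and under no other. With both values required above the floor, 0 rather than 1 member probe set was past 3-fold upward after serum in Rat1-control cells, and 2 rather than 3 were in the Rat1-Omomer response and in stimulated Rat1-Omomer over starved Rat1-control cells, since the 0 min values of Nr4a3 are under the floor. With a floor of 1 noise SD, 1 rather than 0 was past 3-fold downward in starved Rat1-Omomer cells and 4 rather than 3 upward in the Rat1-Omomer response (X86003_at in both). Over the alternatives, the Rat1-Omomer serum response spanned 10.3 to 14.7 and 11.1 to 14.4 for both Nr4a1 probe sets, 19.2 to 72.2 for rc_AI176710_at of Nr4a3 with the floor, and 1.17 to 2.46 for AF023087_s_at of Egr1. At 90 min the ratio between the lines spanned 4.09 to 5.66 and 5.46 to 6.85 for Nr4a1, 5.23 to 5.94 for rc_AI176710_at and 1.32 to 2.06 for AF023087_s_at. The median over the 2 probe sets of Nr4a3 with a ratio was 7.97 or more for the Rat1-Omomer response and 3.13 or more between the lines at 90 min. For the Rat1-control response it was 1.85. That value joins a ratio of at least 6.48 with one of at most 0.528, so it is neither a measurement nor a bound. Quantile normalization turned the direction of 4 small ratios, all within 1.15-fold of equal as reported (AF023087_s_at in the Rat1-control serum response and between the lines at 0 min, and M18416_at and X86003_at in stimulated Rat1-Omomer over starved Rat1-control cells). Signals near the floor of 1048 (Nr4a2, X86003_at) limit what can be read from them.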
